A study of Homo sapiens with 6 samples.

Results

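The genes described here are oncofetal genes, which are active in the embryo or fetus, largely silent in most adult tissues and active again in some tumours. They are LIN28A and LIN28B, HMGA1 and HMGA2, SALL4, IGF2BP1, IGF2BP2 and IGF2BP3, AFP and GPC3, chosen by name for their link to rhabdoid tumours. A gene was measured where a probe set was annotated to it and to no other gene, and where several were, the one with the highest 6-array mean was read. This gave 9 of the 10 genes, among 18417 genes in all. HMGA2 is not analysed here, because its probe set is annotated to ELAC2 as well.

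RNA came from A204, an established human cell line of a rhabdoid tumour, a childhood cancer that typically has lost the chromatin remodelling subunit SMARCB1. The control group had 3 arrays of cells given the solvent DMSO, per the treatment protocol, although another label gives their treatment as none. The SAHA group had 3 arrays of cells treated for 12 h with the histone deacetylase inhibitor SAHA, also called vorinostat. The labels print the SAHA dose as 10 with an incomplete unit. Both groups are the same cell line, which is the only one studied, and the labels name no separate cultures or dishes. The p-values therefore measure array-to-array spread, part or all of which may be technical.

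Levels are log2 values of the deposited RMA signal, a normalized brightness summarised over the probes of a probe set. Changes are SAHA minus control on that log2 scale, and a gene is called higher or lower at an adjusted p under 0.05 (limma, Benjamini-Hochberg over all genes). The median level over all genes was 8.11 in control and 8.10 in SAHA, arrays of a group correlated at 0.9965 to 0.998 across probe sets and arrays of different groups at 0.9728 to 0.9738, where probe sets are not independent replicates. The table has no detection call. As a guide only, 341 olfactory receptor genes, which these cells are not known to use, had control levels with a median of 4.86 and a 5th to 95th percentile range of 3.88 to 6.31. Probe sets differ in how strongly they bind, so this range is no detection limit. Of these 341 genes, 3 were called higher and 37 lower in SAHA, with a median change of -0.06. Of the markers of rhabdoid cells, VIM (vimentin) was at 12.81 ± 0.03 and the keratin genes KRT8 and KRT18 at 13.55 ± 0.01 and 13.54 ± 0.02 in control (SD, n = 3). Of 7 such markers VIM (-0.18), KRT18 (-0.21), MUC1 (-0.28) and SMARCB1 (-0.51) fell, ENO2 (1.30) and CD99 (0.39) rose, and KRT8 (-0.07) did not pass. SMARCB1, the subunit that such tumours typically lack, was at 7.74 ± 0.04 in control and 7.22 ± 0.05 in SAHA, and whether its signal is that of an intact transcript was not tested. MUC1 was no longer called without SAHA replicate 2 (adjusted p = 0.0523, limma) or without moderation (0.0684). KRT8 was called lower with trend and robust moderation (adjusted p = 0.0141, limma) and without moderation (0.00715).

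LIN28A and LIN28B are RNA-binding proteins that block the maturation of the let-7 microRNAs, a family that rises as cells differentiate. In turn let-7 represses growth and embryonic transcripts, among them HMGA2, IGF2BP genes and LIN28B itself, so that these genes form one circuit. HMGA proteins bend AT-rich DNA, IGF2BP proteins bind and stabilise messenger RNAs, SALL4 is a zinc-finger factor of embryonic stem cells that recruits the NuRD deacetylase complex, AFP is the main serum protein of the fetus and GPC3 is a cell-surface heparan sulphate proteoglycan. AFP, GPC3 and SALL4 are used as tumour markers in liver and germ cell cancers.

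The oncofetal genes moved in different directions. GPC3 rose 2.29-fold and HMGA1 rose 1.14-fold. IGF2BP3 fell 1.90-fold, IGF2BP2 fell 1.33-fold and SALL4 fell 1.13-fold. LIN28A, LIN28B, IGF2BP1 and AFP did not pass the test. Thus 5 of 9 genes were called, 2 higher and 3 lower, while over all genes tested 60% were called, 31.1% higher and 28.9% lower. Only GPC3 was called with a change of at least 2-fold, which held for 11.3% of all genes. The median change of the 9 genes was 0.04, against -0.0027 over all genes. The share of these genes that was called is thus close to that of all genes. The shares over all genes are also the background for the counts of the related lists below.

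**Figure D1:**
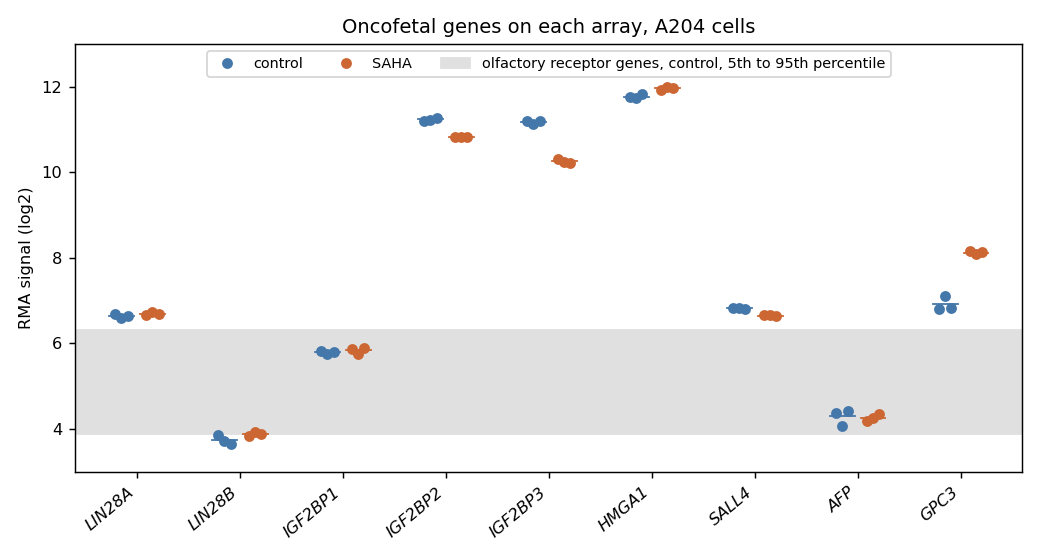
RMA signal (log2) of the 9 measured oncofetal genes on each array. Points are single arrays, 3 of control and 3 of SAHA per gene, short lines are group means, and the grey band is the 5th to 95th percentile range of 341 olfactory receptor genes in control (3.88 to 6.31). IGF2BP2 and IGF2BP3 are lower and GPC3 is higher on all 3 SAHA arrays, while LIN28B, IGF2BP1 and AFP lie within or below the band in both groups. Heights of different genes are not comparable.

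LIN28A was at 6.68, 6.59 and 6.65 on the control arrays and at 6.66, 6.73 and 6.68 on the SAHA arrays. The groups overlapped, and the change was 0.04 (95% confidence interval -0.06 to 0.15, adjusted p = 0.437, limma). A further probe set of LIN28A read lower, at 5.53, 5.61 and 5.88 in control and 5.36, 5.14 and 5.26 in SAHA. Its change was -0.42 (SE 0.096, adjusted p = 0.00557 over all probe sets of 1 gene, limma), and its groups did not overlap. The mean of both probe sets gave -0.19 (adjusted p = 0.0203, limma). Both the sign and the call for LIN28A thus depend on which probe set is read. The further probe set was at 5.67 in control and 5.25 in SAHA, within the olfactory receptor range. Whether it reads LIN28A alone was not tested.

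LIN28B was at 3.87, 3.73 and 3.66 in control and at 3.84, 3.92 and 3.88 in SAHA. Control replicate 1 lay among the SAHA values. The change was 0.13 (95% confidence interval -0.01 to 0.27) and did not pass (adjusted p = 0.1, limma). It passed without control replicate 1 (0.19, adjusted p = 0.0171, limma), after a further quantile normalization (0.20, adjusted p = 0.024) and after cyclic loess scaling (0.18, adjusted p = 0.035). Over 14 alternatives the adjusted p of LIN28B ran from 0.0171 to 0.258. The level of LIN28B was below the lower bound of the olfactory receptor range in control, and no detection call is at hand, so any change at this level could be compressed.

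The within-array difference LIN28A minus LIN28B changed by -0.09 (SE 0.055, exact permutation p = 0.2, two-sided, adjusted p = 0.2 over 4 paralog pairs). With 3 arrays against 3, this test cannot go below 0.1, here and for the pairs that follow.

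The let-7 microRNAs that LIN28 proteins act on share their seed, the bases 2 to 8 that pair with target messages. All 9 mature 5p sequences of the family in the RefSeq table (GRCh38.p14) have the same seed. The 5 below show how little the rest differs, with the seed in capitals.
let-7a-5p: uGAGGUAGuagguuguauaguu
let-7c-5p: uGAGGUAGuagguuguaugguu
let-7e-5p: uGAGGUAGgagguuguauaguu
let-7f-5p: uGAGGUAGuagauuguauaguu
let-7i-5p: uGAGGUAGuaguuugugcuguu

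LIN28 proteins bind the unprocessed hairpin at GGAG in its loop, which attracts enzymes that add a uridine tail. This motif, read on the RNA strand, lay between the arms in 8 of 11 let-7 family hairpins with both arms listed (72.7%), and in 60 of all 739 such hairpins (8.12%). A match is a description of the letters and not a shown binding site. The hairpins of let-7c and let-7i, whose genes were measured, hold it in the loop, and that of let-7b does not (capitals mark GGAG between the arms only, GRCh38.p14, RefSeq).
let-7c hairpin, chr21:16539828-16539911, plus strand: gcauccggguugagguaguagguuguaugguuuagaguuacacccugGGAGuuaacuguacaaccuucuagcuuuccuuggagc
let-7i hairpin, chr12:62603686-62603769, plus strand: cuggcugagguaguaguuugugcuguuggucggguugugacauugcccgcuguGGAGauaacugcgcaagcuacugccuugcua
let-7b hairpin, chr22:46113686-46113768, plus strand: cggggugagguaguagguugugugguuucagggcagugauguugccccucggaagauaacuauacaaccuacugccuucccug

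Mature let-7 was not measured. What the arrays held were probe sets annotated to let-7 precursor genes and to the transcripts that carry them. Of 14 such genes 9 fell and 5 did not pass, and the median change was -0.27. None rose, and at an unadjusted p under 0.05 (limma) 0 were higher as well. Over all genes 28.9% were called lower. Some precursor genes lie within a host transcript that is counted too, so the 14 are not separate loci. MIR99AHG, the host transcript of let-7c, had the largest fall. It was at 7.29, 7.16 and 6.60 in control and at 5.67, 5.65 and 5.13 in SAHA, so that the groups were apart. Its change was -1.53 (SE 0.204, adjusted p = 0.000251, limma). WDR82, whose intron holds let-7g, changed by -0.60 (adjusted p = 1.38e-05, limma). MIRLET7BHG, the host of let-7b and a copy of let-7a, changed by -0.41 (adjusted p = 0.00171). The precursor gene MIRLET7I was at 7.39, 7.40 and 7.50 in control and at 7.11, 7.07 and 7.23 in SAHA, a change of -0.29 (adjusted p = 0.00221). Other calls were at levels within the olfactory receptor range: MIRLET7C changed by -0.38, MIRLET7E by -0.23, MIRLET7F1 by -0.38, MIRLET7F2 by -0.29 and MIRLET7G by -0.24. Calls among the 341 olfactory receptor genes also leaned this way, with 37 lower and 3 higher. MIRLET7G was no longer called when control replicate 2, control replicate 3 or SAHA replicate 2 was left out (adjusted p = 0.1, 0.0639 and 0.078 in that order), and MIRLET7C was not called without moderation (0.0523). Nor was MIRLET7G called after a further quantile normalization (adjusted p = 0.0505, limma), without moderation (0.112), with array weights (0.0606) or with the replicate block (0.0569). The genes that did not pass were MIRLET7A1 (-0.08), MIRLET7A2 (0.07), MIRLET7D (-0.10), MIR98 (-0.03) and HUWE1 (-0.07), an enzyme gene that carries let-7f-2 and miR-98.

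**Figure D2:**
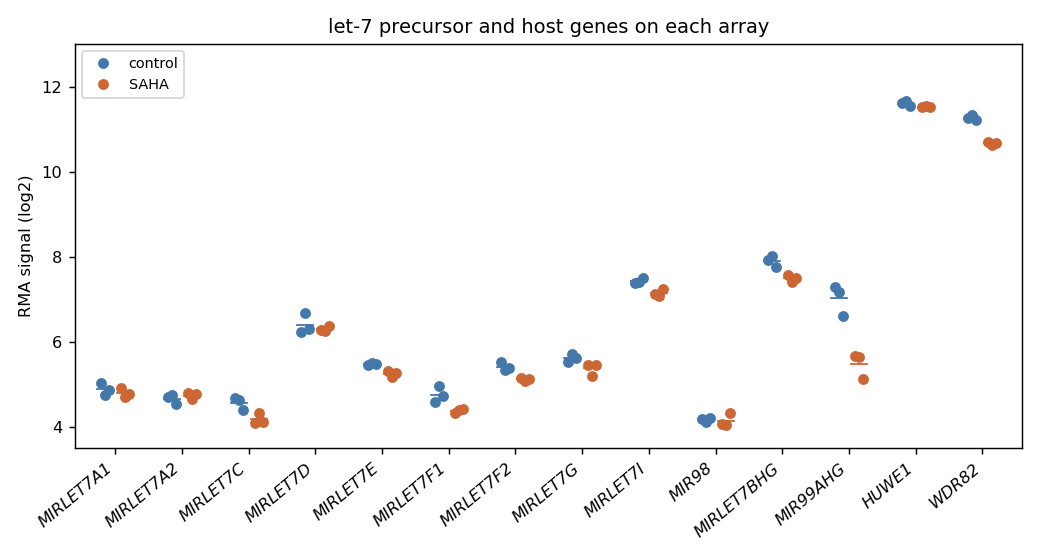
RMA signal (log2) of 14 let-7 precursor and host genes on each array. Points are single arrays, 3 of control and 3 of SAHA per gene, and short lines are group means. MIR99AHG, WDR82 and MIRLET7BHG are lower on all SAHA arrays, and several precursor genes lie near or below a level of 5.5 in both groups.

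Among 17 genes that make, load or destroy let-7, 10 fell, 2 rose and 5 were not called, and the median was -0.19. Both subunits of the nuclear processor that cuts the primary transcript fell, DROSHA by 0.94 (10.03 ± 0.03 to 9.10 ± 0.04, adjusted p = 5.89e-07, limma) and DGCR8 by 1.01 (9.37 ± 0.11 to 8.35 ± 0.06). AGO2, the argonaute that slices targets, was at 10.36, 10.52 and 10.41 in control and at 8.97, 8.92 and 8.88 in SAHA. Its change of -1.51 (SE 0.054, adjusted p = 1.56e-07, limma) exceeded the array spread by far, and AGO4 changed by -1.41, whereas AGO1 rose by 0.28. The uridylyl transferases that tail let-7 at the call of LIN28 went opposite ways. TUT4 was at 11.13, 11.08 and 11.05 in control and at 10.35, 10.36 and 10.32 in SAHA, a change of -0.74 (adjusted p = 1.88e-06). TUT7 was at 9.01, 8.97 and 9.06 in control and at 9.76, 9.77 and 9.83 in SAHA, a change of 0.78 (adjusted p = 2.03e-06). DIS3L2, the nuclease that degrades tailed let-7, was at 9.56 ± 0.05 and 9.49 ± 0.07 and did not pass (adjusted p = 0.305). The same was true of TRIM71, a further let-7 target of early development (0.08), of the DICER1 partners TARBP2 (0.08) and PRKRA (0.06), and of AGO3 (0.10). After a further quantile normalization AGO3 (0.17) and TARBP2 (0.15) were called higher. DICER1, the cytoplasmic processor, changed by -0.12 at adjusted p = 0.0414, a call that ended under 5 of the 6 fits without 1 array, that without control replicate 3 being the exception.

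Genes known as let-7 targets outside the oncofetal set moved both ways, 7 higher, 8 lower and 2 not passing of 17 measured, with a median of -0.14. CDC25A, a phosphatase that drives cell division, changed by -2.40 (adjusted p = 1.36e-06, limma) and E2F2, a factor of the same programme, by -1.50. THBS1, the matrix protein thrombospondin, rose by 2.15 (5.95 ± 0.27 to 8.10 ± 0.09), and IGF1R, the receptor for insulin-like growth factors, rose by 0.41. HRAS (-0.15) and FIGN (0.05) did not pass. HRAS was at adjusted p = 0.0506 (limma) and was called lower under 6 alternatives, with an adjusted p from 0.0129 without control replicate 3 to 0.0451 with genes under 5 left out.

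IGF2BP1 was at 5.82, 5.75 and 5.81 in control and at 5.86, 5.76 and 5.89 in SAHA. The groups overlapped, the change was 0.04 (95% confidence interval -0.07 to 0.16, adjusted p = 0.485, limma), and both levels were within the olfactory receptor range. IGF2BP2, the paralog that persists in many adult tissues, was at 11.21, 11.22 and 11.28 in control and at 10.82, 10.82 and 10.83 in SAHA. Every SAHA array was below every control array, with a change of -0.41 (SE 0.042, adjusted p = 5.22e-05, limma).

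IGF2BP3, which is strongly oncofetal, was at 11.19, 11.14 and 11.20 in control and at 10.30, 10.25 and 10.22 in SAHA. Its change of -0.92 (SE 0.044, adjusted p = 6.21e-07, limma) was the largest fall among the oncofetal genes, and the groups were far apart. Groups that do not overlap were found for 65.4% of all genes. The within-array difference IGF2BP2 minus IGF2BP3 changed by 0.51 (SE 0.035), and IGF2BP1 minus IGF2BP3 by 0.97 (SE 0.049). IGF2BP1 minus IGF2BP2 changed by 0.46 (SE 0.047). Each gave an exact permutation p of 0.1, the smallest possible (adjusted p = 0.133 over 4 pairs). IGF2BP1 changed by 0.04 at a level within the olfactory receptor range, so its pairs mostly give the falls of the other genes. The difference between the falls of IGF2BP2 and IGF2BP3 was larger than the spread of their ratio over arrays, in a design whose exact test cannot pass.

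IGF2BP2-AS1, an antisense transcript with its own probe set and named outside the gene rule, was at 4.61 ± 0.18 in control and 4.45 ± 0.10 in SAHA (adjusted p = 0.186, limma). It passed among the alternatives only without control replicate 3 (-0.26, adjusted p = 0.0252).

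The RefSeq promoter table (GRCh38.p14) held 5 of the 10 genes, LIN28B, IGF2BP2, IGF2BP3, HMGA1 and AFP. The 250 bases before the start site are shown for the IGF2BP genes that fell and for AFP, which did not pass the test, because they differ in base composition. They were searched on both strands for the E-box CACGTG, the GC box GGGCGG and the TATA motif TATAAA, and capitals mark the matches, which can overlap.
IGF2BP3, chr7:23470492-23470741, minus strand: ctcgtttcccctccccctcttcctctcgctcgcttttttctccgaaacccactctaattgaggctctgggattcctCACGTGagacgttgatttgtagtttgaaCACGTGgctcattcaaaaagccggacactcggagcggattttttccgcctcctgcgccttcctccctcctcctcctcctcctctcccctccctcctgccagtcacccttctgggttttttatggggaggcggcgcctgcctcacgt
IGF2BP2, chr3:185825043-185825292, minus strand: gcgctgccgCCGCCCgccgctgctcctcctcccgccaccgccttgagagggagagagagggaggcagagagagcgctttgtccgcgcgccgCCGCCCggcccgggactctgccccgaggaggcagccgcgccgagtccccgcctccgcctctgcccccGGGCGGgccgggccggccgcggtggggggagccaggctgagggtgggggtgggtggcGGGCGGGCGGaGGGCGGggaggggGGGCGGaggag
AFP, chr4:73435971-73436220, plus strand: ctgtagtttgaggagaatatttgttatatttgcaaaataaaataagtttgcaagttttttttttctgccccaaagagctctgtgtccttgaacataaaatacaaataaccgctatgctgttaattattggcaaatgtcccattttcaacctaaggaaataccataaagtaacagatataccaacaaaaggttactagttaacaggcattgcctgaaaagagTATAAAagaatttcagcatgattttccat

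The IGF2BP3 window held 2 E-boxes, no GC box and 15 CpG dinucleotides. At least 1 E-box was present in 6.34% and at least 2 in 0.535% of 35116 promoter windows of this length. The first IGF2BP2 window held 7 GC boxes and 32 CpG, with at least 1 GC box in 42.6% and at least 2 in 24.3% of all windows. The AFP window held 1 TATA motif, found in 10.7% of all windows, and 1 CpG. The median over all windows was 11 CpG. The first windows of HMGA1 and LIN28B were also rich in CpG, at 30 and 33, but each of these genes and IGF2BP2 has a second listed window with fewer. The second window of IGF2BP2 held 2 CpG, 0 GC boxes and 1 TATA motif, that of HMGA1 held 5 CpG and that of LIN28B held 6 CpG and 1 E-box. The genes with a CpG-rich first window included HMGA1, which rose, IGF2BP2, which fell, and LIN28B, which did not pass. These are letter matches and no measured binding.

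Transcripts that IGF2BP proteins are known to bind, with the IGF receptors, gave 3 higher, 6 lower and 1 not passing of 10 measured (median -0.34). IGF2R, the receptor that clears IGF2, was at 10.41, 10.48 and 10.33 in control and at 11.22, 11.19 and 11.25 in SAHA, a rise of 0.81 (adjusted p = 3.03e-06, limma). CD44, the hyaluronan receptor, fell by 0.58 and GLI1, a Hedgehog effector, by 0.59. MAPK4, an atypical kinase, changed by -1.03 (adjusted p = 4.88e-06), and BTRC, a ubiquitin ligase subunit, rose by 0.39. INSR, the insulin receptor, changed by -0.36. ACTB, the beta-actin message on which this family was first studied, was at 13.59 ± 0.04 and 13.57 ± 0.02 and did not pass (adjusted p = 0.696). IGF2 and H19 were not analysed here. The proliferation gene MKI67 is also on this list and changed by -3.27.

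IGF2BP proteins read N6-methyladenosine, a mark on messenger RNA. Of 12 genes that write, erase or read it, 8 fell and 4 rose, none by 2-fold, with a median of -0.16. Over all genes tested 60% were called. After a further quantile normalization or cyclic loess scaling, 6 of these genes were lower. The small changes of YTHDF1 (0.13), ZC3H13 (-0.15), VIRMA (-0.16), YTHDF3 (-0.17) and CBLL1 (-0.18) were not called in some fits without 1 array. The eraser ALKBH5 rose by 0.65 (adjusted p = 1.08e-05, limma) and the eraser FTO by 0.27. Among writer subunits RBM15 changed by -0.51, WTAP by -0.31 and METTL3, the catalytic subunit, by -0.24, whereas METTL14, its partner, rose by 0.27. The reader YTHDC1 changed by -0.38.

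HMGA1 was at 11.75, 11.73 and 11.82 in control and at 11.93, 12.00 and 11.96 in SAHA. All SAHA arrays were above all control arrays, by a mean of 0.19 (SE 0.046, adjusted p = 0.00657, limma). Its other probe sets of 1 gene also read higher in SAHA, at 0.20 (adjusted p = 0.00485 over all probe sets) and 0.31 (adjusted p = 0.000693). The pair that read 0.19 and 0.20 had nearly equal values on each array, so they may share probes and are not separate evidence. HMGA2-AS1, an antisense transcript at the HMGA2 locus with its own probe set, named outside the gene rule, was at 5.63 ± 0.05 in control and 5.81 ± 0.04 in SAHA (adjusted p = 0.0115, limma). It is not a measure of HMGA2.

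Other high mobility group genes, which encode unrelated HMGB and HMGN proteins of chromatin, fell in 5 of 7 measured cases, with a median of -0.43. None rose, and 0 were higher at an unadjusted p under 0.05 (limma). Over all genes 28.9% were called lower. The list named 8 such genes, and HMGB1 was not among the 7 measured. HMGB2, which is abundant in dividing cells, was at 9.80, 9.95 and 9.98 in control and at 7.04, 7.28 and 7.17 in SAHA, a change of -2.75 (SE 0.074, adjusted p = 4.09e-08, limma). HMGB3 changed by -1.36, HMGN2 by -0.78, HMGN3 by -0.43 and HMGN1 by -0.19. HMGN4 (-0.14) and HMGN5 (-0.13) did not pass, and HMGN4 passed without control replicate 2 (adjusted p = 0.0347). HMGA1 thus rose on the arrays on which these 5 genes were lower. Whether HMGA1 differs from them was not tested.

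SALL4 was at 6.84, 6.82 and 6.80 in control and at 6.66, 6.66 and 6.63 in SAHA. The groups did not overlap, but the fall was small, -0.17 (95% confidence interval -0.27 to -0.08, adjusted p = 0.00579, limma). The level was not far above the olfactory receptor range. Its relatives SALL1 (0.15), SALL2 (0.03) and SALL3 (-0.05) did not pass, and SALL1 passed without SAHA replicate 3 (0.21, adjusted p = 0.044).

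Of 13 measured genes of the SALL family and of pluripotency, 2 rose, 2 fell and 9 did not pass (median 0.05). SOX2, a stem cell factor, rose by 0.53 (8.37 ± 0.34 to 8.90 ± 0.06, adjusted p = 0.0158, limma). Its control arrays were uneven, at 8.52, 8.62 and 7.98, and without moderation it was not called (adjusted p = 0.0959). KLF4, a reprogramming factor, rose by 0.50 (adjusted p = 0.000138). DNMT3B, the embryonic DNA methyltransferase, changed by -0.72 (adjusted p = 1.26e-05) and TERT, the telomerase subunit, by -0.24. The embryonic markers ZFP42, DPPA2 and DPPA4 were at 4.50, 4.05 and 4.81 in control, within the olfactory receptor range, with changes of -0.06, 0.05 and 0.10. Without control replicate 2 DPPA4 passed (0.17, adjusted p = 0.0493), and without SAHA replicate 1 ZFP42 did (-0.15, adjusted p = 0.0469).

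The NuRD complex, which SALL4 recruits, had 9 of 13 subunit genes lower and 4 higher, with a median of -0.27. Over all genes 28.9% were called lower and 31.1% higher. The helicase CHD3 changed by -1.25 (adjusted p = 6.13e-07, limma), and the scaffold subunits MTA1 and MTA3 by -1.17 and -1.05, while MTA2 changed by -0.41. The genes that rose were HDAC1 (0.39), CHD4 (0.25), GATAD2A (0.51) and GATAD2B (0.24). The small falls of MBD2 (-0.14) and RBBP7 (-0.12) were not called after a further quantile normalization (adjusted p = 0.139 and 0.0703), nor, for each, in 4 of the 6 fits without 1 array.

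AFP was at 4.38, 4.08 and 4.43 in control and at 4.18, 4.25 and 4.35 in SAHA. The groups overlapped and the change was -0.04 (95% confidence interval -0.26 to 0.18, adjusted p = 0.758, limma), at levels within the olfactory receptor range. Its sign turned under some alternatives, and the adjusted p of AFP ran from 0.0811 to 0.997 over 14 of them. Its neighbours on chromosome 4, the albumin gene ALB and the related AFM, were at 4.56 ± 0.04 and 4.73 ± 0.08 in control and did not pass (-0.08 and 0.01). Of these 3 genes 0 were called, nor did any have an unadjusted p under 0.05 (limma).

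Several regulators of AFP passed the test. ZHX2, a repressor of AFP after birth, fell from 7.75 ± 0.07 to 6.92 ± 0.10 (-0.83, adjusted p = 8.44e-06, limma). ZBTB20, another repressor, rose by 0.37, and NR5A2, a nuclear receptor that activates AFP, rose by 0.58 (adjusted p = 1.44e-05) from a level of 5.48. NFIA, a nuclear factor I gene, changed by -1.17 (adjusted p = 2.51e-07). FOXA1 (0.05), FOXA2 (-0.03) and CEBPA (-0.05), liver-enriched factors, did not pass. Counted together with the neighbours ALB and AFM, 2 rose, 2 fell and 5 did not pass of 9 measured (median -0.03).

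Markers of liver cells and of yolk sac and germ cell tumours, some of which make AFP, moved both ways. Not every gene on these lists marks a cell that makes AFP. The blood cell and endothelial markers that follow stand for other cell types. Of 13 liver genes 1 rose and 3 fell. The other 9 were not called, and the summed linear signal was 665 to 680 in control and 645 to 659 in SAHA. APOB fell by 0.30 and AHSG rose by 0.29. The falls of APOA1 (-0.12) and TTR (-0.13) ended in most fits without 1 array. The count of lower genes was 1 without control replicate 1, without control replicate 3 and without SAHA replicate 1, and the count of higher genes was 2 without SAHA replicate 1, where TAT passed (0.19). Of 11 yolk sac and germ cell tumour markers 4 rose, 3 fell and 4 did not pass. CGA, the alpha subunit of the glycoprotein hormones, was at 5.99, 5.84 and 5.71 in control and at 9.49, 9.47 and 9.55 in SAHA, a 12.6-fold rise (adjusted p = 1.17e-08, limma). GATA6 rose by 0.55, GATA4 by 0.39 and PRDM1 by 0.17, while KIT changed by -0.75 and TFAP2C by -0.33. The summed signal of this list was 4297 to 4465 in control and 4423 to 4497 in SAHA. In it the rise of CGA and the fall of TFAP2C, from 11.49 in control to 11.16 in SAHA, offset each other. Such sums add different probe sets and are led by the brightest. Blood cell markers did not pass in 4 of 5 cases, the exception being CD14, and PTPRC was at 4.05 ± 0.07 in control. Their summed signal, 690 to 737 in control and 2157 to 2250 in SAHA, moved with CD14. Of 5 endothelial markers PECAM1 (0.13) and VWF (0.22) did not pass, KDR rose by 0.64, and CDH5 and TEK fell by 2.19 and 0.18. The summed signal was 6855 to 7123 in control and 1656 to 1727 in SAHA. That sum followed CDH5, by far the brightest of the 5, whose mean level dropped from 12.73 to 10.54. VWF, the next brightest in control, had a mean of only 5.85 there. The sum therefore says little about the other endothelial markers. TEK passed in 1 of 6 fits without 1 array, and VWF passed without control replicate 3 (0.32). The part of these markers in the results was not tested.

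GPC3 had the largest change of the 9 measured oncofetal genes. It was at 6.81, 7.11 and 6.84 on the control arrays and at 8.15, 8.08 and 8.13 on the SAHA arrays. The lowest SAHA array was well above the highest control array. The control mean of GPC3, 6.92, was not far above the olfactory receptor range, which ended at 6.31. The rise was 1.20 (SE 0.08, 95% confidence interval 1.01 to 1.38, adjusted p = 4.18e-06, limma), or 2.29-fold. Over the alternatives it lay between 1.14 and 1.29. The culture was measured in bulk, so more cells with GPC3 and more GPC3 RNA per cell cannot be told apart, and the same holds for the genes that fell.

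**Figure D3:**
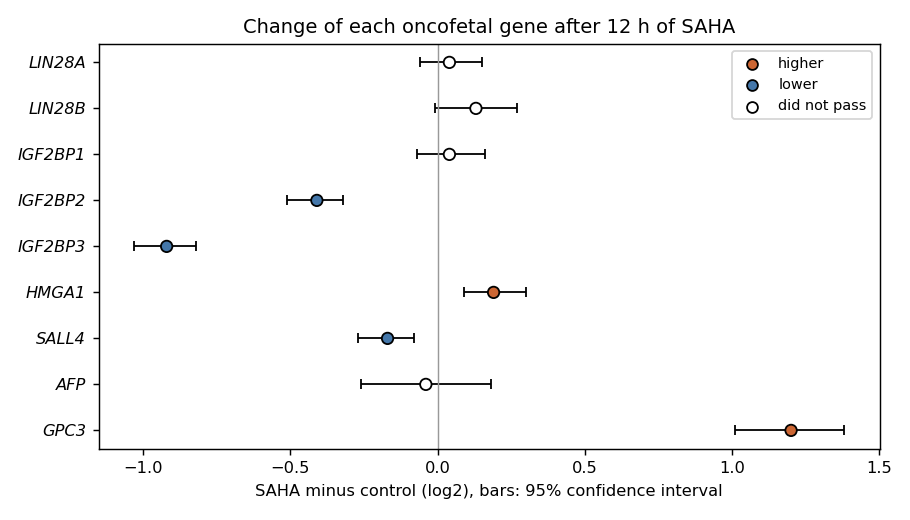
Change of each measured oncofetal gene, SAHA minus control on the log2 scale, with bars for the 95% confidence interval of the fit (3 against 3 arrays). Filled points passed the test and open points did not. GPC3 is at 1.20, IGF2BP3 at -0.92 and IGF2BP2 at -0.41, while the intervals of LIN28A, LIN28B, IGF2BP1 and AFP include 0.

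All 6 glypican genes passed, 4 higher and 2 lower, where 60% of all genes were called. GPC4, the neighbour of GPC3 on the X chromosome, was at 5.20, 5.46 and 5.20 in control and at 6.22, 6.06 and 6.20 in SAHA, a rise of 0.87 (SE 0.082, adjusted p = 3.24e-05, limma). Its control level was within the olfactory receptor range. GPC5 was at 6.36, 6.30 and 6.50 in control and at 7.68, 7.78 and 7.84 in SAHA, a rise of 1.38 (SE 0.066, adjusted p = 6.66e-07). Its control level was about at the upper bound of the olfactory receptor range. GPC6, the neighbour of GPC5 on chromosome 13, went the other way, from 10.30, 10.40 and 10.26 in control to 9.53, 9.29 and 9.41 in SAHA (-0.91, SE 0.069, adjusted p = 8.39e-06). GPC2, a neural glypican, rose by 0.51 (7.31 ± 0.09 to 7.82 ± 0.08), and GPC1 fell by 0.53 (10.03 ± 0.10 to 9.50 ± 0.05). These directions and calls held under every alternative that included the gene.

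**Figure D4:**
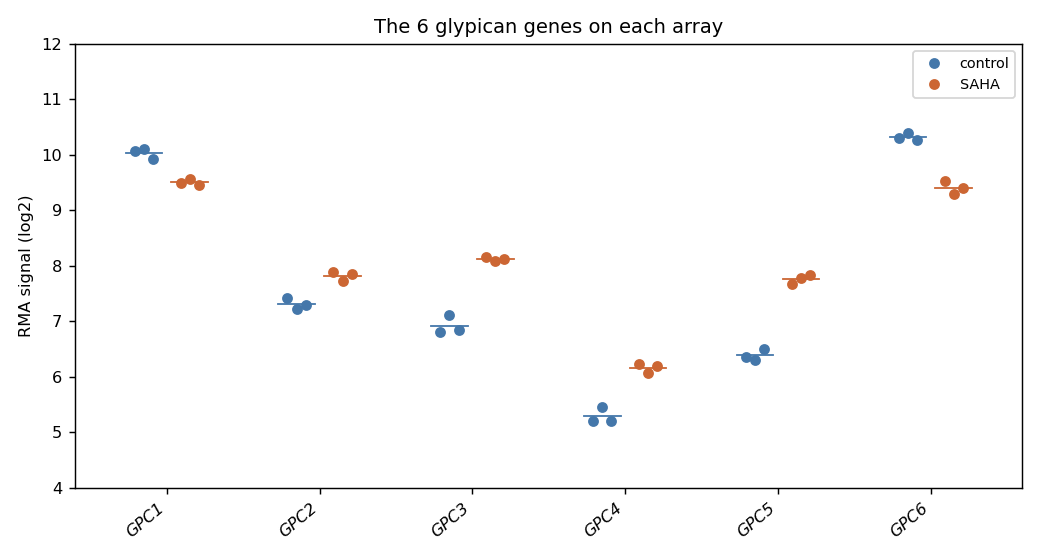
RMA signal (log2) of the 6 glypican genes on each array, 3 of control and 3 of SAHA. Points are single arrays and short lines are group means. GPC2, GPC3, GPC4 and GPC5 are higher and GPC1 and GPC6 lower on all SAHA arrays. Heights of different genes are not comparable.

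The enzymes that build and trim the heparan sulphate chains of glypicans were counted together with the other glypicans, giving 8 higher, 5 lower and 1 not passing of 14 (median 0.30). The chain polymerases EXT1 and EXT2 rose by 0.54 and 0.39, the related EXTL3 by 0.45 and the sulphotransferases HS6ST1 and HS2ST1 by 0.70 and 0.21. NDST1, which starts sulphation, was at 12.73 ± 0.03 in control and 11.61 ± 0.02 in SAHA (-1.12, adjusted p = 1.85e-07, limma). SULF2, an extracellular sulphatase, changed by -0.72 and NOTUM, a WNT deacylase once linked to glypican release, by -1.20. SULF1 (-0.06) did not pass.

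**Figure D5:**
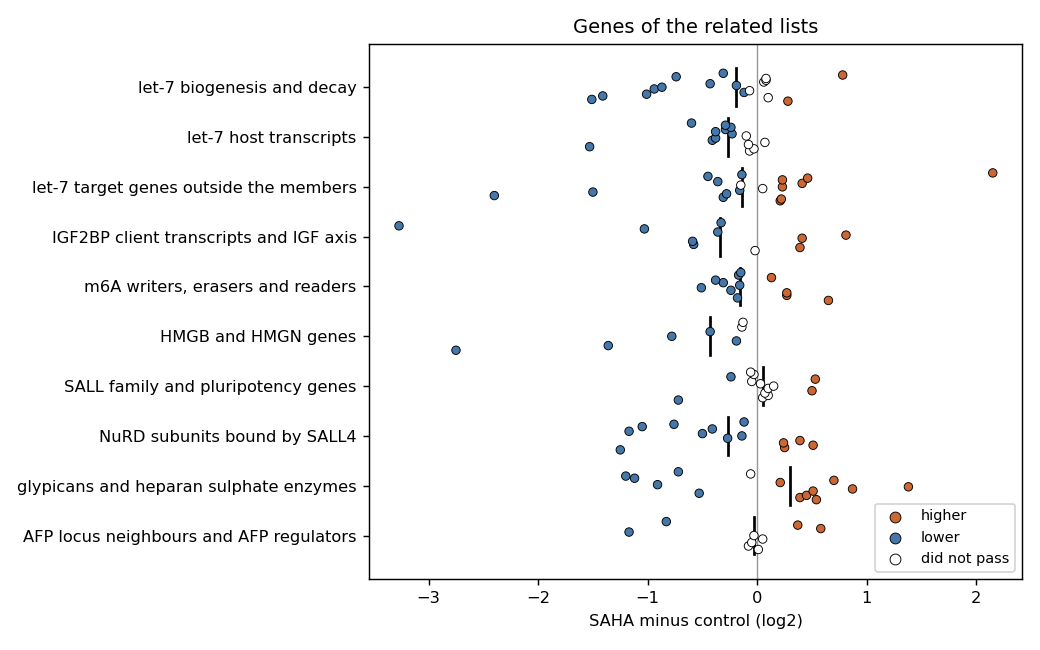
Change of every measured gene on 10 lists related to the oncofetal genes, SAHA minus control on the log2 scale. Each point is a gene, filled where it passed the test and open where it did not, and black bars are list medians. Medians lie between -0.43 (HMGB and HMGN genes) and 0.30 (glypicans and heparan sulphate enzymes), against -0.0027 over all genes.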

How the data were processed

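RNA of 6 samples of A204 cells was measured on Affymetrix whole-transcript arrays (Ambion WT Expression Kit), per the labels' protocols. The authors deposited a signal intensity per probe set, summarised with RMA per the submitters' processing notes, on a linear scale from 6.56 to 20338, so log2 was taken. RMA gives the arrays almost the same distribution, which hides any change of total RNA. The software version is not stated in those notes. The number of arrays limits the precision.

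Of 33252 probe sets, 19460 named exactly 1 gene, 1754 several and 12038 none. Symbols were updated through a RefSeq table (GRCh38.p14), which matched 19429. Groups came from the sample titles. SAHA was compared with control by limma 3.58.1 in R 4.3.3 (lmFit, eBayes, no covariates, two-sided, Benjamini-Hochberg over 18417 genes). Paralog pairs were compared with exact permutation tests. The planned pair of HMGA1 and HMGA2 could not be formed.

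The members and the 15 related lists were chosen with earlier results of these data known. Named were all members, of each list up to 4 called genes with the smallest adjusted p and any gene of a class of 5 or fewer. Further genes were named after their values were seen, and some genes of the rule are left out for length. On simulated data with 18417 genes, the recovery was 80.6% for log2 changes of 0.5 and 100% for changes of 1 and of 2, and 15 unchanged genes were called. In that simulation only a small share of genes was changed, with independent noise at each gene's own spread. In the real comparison 60% of genes were called, so these figures do not give its recovery or its false calls. Alternatives changed the scaling, the filter on dim genes, the choice of probe set, the moderation, array weights and the replicate block, and left out each array in turn.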

Additional observations from a re-analysis of the deposited data

How the results depend on the processing

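Of 136 values of the 9 oncofetal genes under 16 alternatives, 132 kept their call. The exceptions were LIN28B, called higher in 3 settings given above, and LIN28A. Read as the mean of its probe sets, LIN28A reversed to -0.19 (adjusted p = 0.0203, limma). The sign of AFP, which never passed, turned after quantile normalization (0.035), after cyclic loess (0.005) and in 3 of the 6 fits without 1 array, which gave -0.15 to 0.029. Without the genes below the median level, 3 oncofetal genes remained and 1 was higher, because GPC3 was not tested. Over all genes 3660 were then called higher, against 5735, with 9209 genes tested. The 4 differences between paralogs kept their sign in every setting run. Sizes can shift, since the change of LIN28A, which enters LIN28A minus LIN28B, ran from -0.19 to 0.063 over the alternatives.

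The labels do not say whether the replicate numbers of the titles pair arrays. Deviations of equal-numbered arrays from their group means correlated at -0.03, -0.167 and -0.004 across genes. No array correlated best with its own number. With 3 arrays per group these deviations constrain one another, so the correlations cannot settle whether arrays were paired. With the replicate block 2 oncofetal genes were higher and 3 lower, as without it, and 10601 genes were called in place of 11049.

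Counts of the related lists that moved by over 1.5 times were few. Genes of let-7 maturation called higher were 4 after quantile normalization, against 2. SOX2 left the higher pluripotency genes with the unmoderated test, leaving 1. Lower liver markers were 1 in place of 3 with centring on the median, with trend and robust moderation and with the block. Endothelial markers were 2 higher and 1 lower after quantile normalization or cyclic loess, 2 higher with array weights, and 1 lower with trend and robust moderation, the unmoderated test or genes under 5 left out. Leaving out genes under the median level lowered the counts of 7 lists by that much, since fewer genes were tested. Dim levels limit what can be said of LIN28B, IGF2BP1, AFP and the further probe set of LIN28A. LIN28A, SALL4 and the control level of GPC3 were not far above the olfactory receptor range.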
